A study of Homo sapiens with 6 samples.

Results

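TRRAP and 9 other genes for subunits of the SAGA coactivator were followed in K562 cells, an established human leukaemia line. The 10 genes (TRRAP, KAT2A, KAT2B, SUPT20H, SUPT3H, SUPT7L, TADA1, TADA2B, TADA3 and USP22) were chosen by symbol from the 60609 genes of the count files, and all 10 were among the 19114 genes with enough counts to test. The genomic copies of EP400, the ATPase and scaffold of the TIP60 complex, carried a homozygous C-terminal degradation tag (dTAG). The WT cells expressed exogenous wild-type EP400 from the AAVS1 safe-harbour site, and the Delta-TRRAP cells expressed from the same site an EP400 without its SANT and HD domains, which hold TRRAP in TIP60. All 6 libraries, 3 per group, came from cells given 500 nM dTAGV-1, the compound that degrades the tagged protein, for 24 h. Each complemented line was 1 isogenic clone of the same tagged parent clone, so clone and genotype cannot be told apart. The 3 libraries of a group are described as biological replicates of 1 line, so the p-values measure the spread between replicates within a clone. In bulk RNA, fewer cells expressing a gene and less RNA per cell cannot be told apart.

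SAGA is a modular coactivator that acetylates histone H3 and removes ubiquitin from histone H2B at active genes. Its core module carries the other parts, an acetyltransferase module is built around KAT2A or its paralog KAT2B, and a deubiquitinase module is built around USP22. TRRAP is a very large pseudokinase of the PIKK family that binds transcription activators and is a subunit of both SAGA and TIP60, where SUPT20H and EP400, respectively, contact it. The EP400 deletion therefore acts on the place of TRRAP in TIP60, and the genes described here show what the transcripts of TRRAP and of the partner complex did in the same cells.

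Libraries held 39966818 to 42616061 counts in genes in WT and 35076835 to 38491513 in Delta-TRRAP. EP400, the edited gene, had normalized counts (counts scaled to a common library size) of 4897, 4897 and 5377 in WT and 5533, 6833 and 4357 in Delta-TRRAP, or 0.14 ± 0.11 (SE, n = 3 per group) as a log2 fold change, which did not pass the edgeR quasi-likelihood test (Benjamini-Hochberg adjusted p = 0.272). The same edgeR test gave 0.29 without Delta-TRRAP replicate 3 (adjusted p = 0.00149), -0.026 without Delta-TRRAP replicate 2 (adjusted p = 0.768), and -0.015 with smooth trends over GC content and transcript length removed (adjusted p = 0.857). The EP400 count sums the tagged gene and the transgene, so it shows neither the deleted stretch nor the protein. The labels call the cells lymphoblast. Of 8 lymphoid markers, 5 reached a mean normalized count of 5 in WT and 3 in Delta-TRRAP, of which CD3D was the highest at 434 and 387, and MS4A1, CD79B and IGHM were at or near 0 in both groups. All 8 erythroid markers were present in both groups, with summed levels of 5407 to 5461 CPM (counts scaled to the library total) in WT and 3977 to 4091 CPM in Delta-TRRAP, and the lymphoid markers summed to 12.0 to 12.4 and 11.4 to 12.3 CPM. Of 8 fibroblast markers, 2 reached a mean normalized count of 5 in WT and 6 in Delta-TRRAP, with sums of 0.871 to 1.40 and 25.1 to 26.4 CPM, and LUM and THY1 were at or near 0 in both. COL1A2 alone carried most of that rise, with mean normalized counts of 1.62 in WT and 875.5 in Delta-TRRAP, whereas COL1A1 had 28.7 and 30.0. The part of these marker differences in the results that follow was not tested.

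The upstream sequences of 3 members are shown because they carry the clearest contrasts in the data: KAT2A and KAT2B, paralogs that moved in opposite directions, and TADA1, the member with the largest fall. Each is the 250 bases before the transcript start (RefSeq, GRCh38.p14), written 5′ to 3′ on the strand of the gene, with matches to the motifs searched in capitals. The KAT2A window is chr17:42121368-42121617 on the minus strand and has a GC content of 58.8%. The KAT2B window is chr3:20040196-20040445 on the plus strand, with a GC content of 80.8%. The TADA1 window is chr1:166876265-166876514 on the minus strand, with a GC content of 64.8%.
KAT2A: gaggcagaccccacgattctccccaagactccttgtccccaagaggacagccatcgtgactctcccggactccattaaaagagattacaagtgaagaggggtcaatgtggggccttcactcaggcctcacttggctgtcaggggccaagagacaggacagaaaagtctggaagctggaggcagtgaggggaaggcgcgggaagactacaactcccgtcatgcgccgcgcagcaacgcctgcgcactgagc
KAT2B: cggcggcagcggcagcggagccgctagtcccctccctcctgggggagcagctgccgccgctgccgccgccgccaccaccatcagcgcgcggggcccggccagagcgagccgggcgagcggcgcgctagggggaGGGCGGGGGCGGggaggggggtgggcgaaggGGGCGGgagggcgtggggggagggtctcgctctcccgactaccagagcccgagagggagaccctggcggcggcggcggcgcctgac
TADA1: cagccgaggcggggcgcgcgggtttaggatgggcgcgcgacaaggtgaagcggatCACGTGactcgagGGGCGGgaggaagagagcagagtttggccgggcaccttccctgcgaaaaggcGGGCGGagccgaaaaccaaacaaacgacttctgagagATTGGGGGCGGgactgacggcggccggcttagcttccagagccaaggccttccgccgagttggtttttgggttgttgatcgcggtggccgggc

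A set of 5 short motifs was searched on both strands of 11 such windows, which covered 9 of the 10 members, and of 35116 windows of the same length genome-wide. GC boxes (GGGCGG) were present in 9 of the 11 windows, belonging to 7 genes, against 42.6% of all windows. The KAT2B and TADA1 windows each held 3 GC boxes and the KAT2A window held none. An E-box (CACGTG), present in 6.34% of all windows, was found only in the TADA1 window among the 11. The ETS motif CCGGAAG, present in 8.52% of all windows, was found in 1 SUPT7L and 1 TADA3 window. CCAAT, present in 32% of all windows, was found in the TADA1 window, where it lies directly before a GC box without sharing a base, and in the TADA2B window. The GATA motif AGATAA, present in 9.17% of all windows, was found in none of the 11. The KAT2A window held none of the 5 motifs. These matches are descriptions of the sequence and carry no measurement of binding.

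The RNA of the SAGA genes did not move as a block. KAT2B rose 1.93-fold, SUPT7L 1.37-fold and TADA2B 1.15-fold in Delta-TRRAP, whereas TADA1 fell by 42.7%, SUPT3H fell by 36.5%, KAT2A fell by 28.8% and TADA3 fell by 24.2%. TRRAP, SUPT20H and USP22 did not pass the test. With an adjusted p of 0.01 or less as the threshold (edgeR quasi-likelihood test, Benjamini-Hochberg over all 19114 genes tested), 7 of 10 members passed, 3 higher and 4 lower. Of all genes tested, 58.3% passed, 30.7% higher and 27.6% lower. Every member had a mean normalized count above 300, and of the 9564 genes at that level 68.0% passed, 25.0% higher and 43.0% lower, so the members passed at about the rate of other genes of like abundance. None of the 10 also reached a fold change of 2, the rule by which the study called genes, with edgeR, DESeq2 or limma-voom. The share of all genes tested was 22.6% with edgeR, which includes genes of low count. When only the 12699 genes with a mean of at least 50 were tested, 1964 were called, with KAT2B the only member among them. The share was not counted among genes with a mean of at least 300. At an unadjusted p under 0.05 with edgeR, the same 7 members passed and no further one. The share of all genes at that looser threshold was not counted, but it is at least the 58.3% that passed the adjusted p. The WT and Delta-TRRAP libraries did not overlap for those 7 members and for 71.1% of all genes tested. The median log2 fold change of the 10 members was -0.03, beside 0.03 over all genes tested and -0.11 over those with a mean of at least 300.

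**Figure D1:**
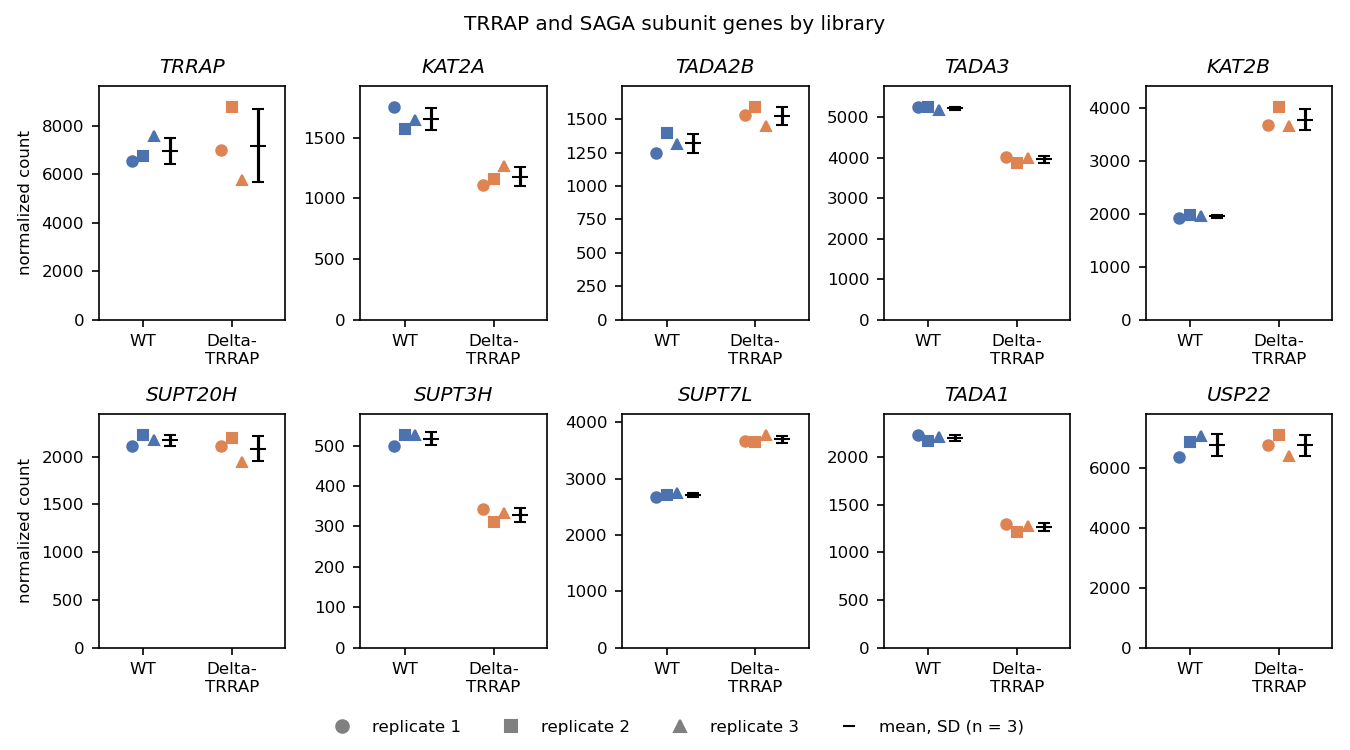
Normalized counts of the 10 members in each library, with 1 panel per gene, WT in blue and Delta-TRRAP in orange, marker shapes for replicate numbers, and the mean and SD of 3 libraries in black on axes that start at 0. The groups are apart for KAT2A, TADA2B, TADA3, KAT2B, SUPT3H, SUPT7L and TADA1, and they overlap for TRRAP, SUPT20H and USP22.

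TRRAP (ENSG00000196367.13, GRCh38 chromosome 7, 98877933 to 99050831, plus strand) was the member whose tether to TIP60 was removed, and its own RNA showed no difference past the test. Its normalized counts were 6538, 6763 and 7585 in WT and 7021, 8769 and 5782 in Delta-TRRAP. The highest and the lowest of the 6 values were both Delta-TRRAP libraries, replicates 2 and 3, and the WT values lay between them. The edgeR log2 fold change came to 0.05 ± 0.11 (SE, n = 3 per group), adjusted p = 0.713. Its coefficient of variation was 7.92% in WT and 20.9% in Delta-TRRAP, the largest of any member in that group. The sign depended on single libraries: the log2 fold change was -0.12 without Delta-TRRAP replicate 2 and 0.18 without Delta-TRRAP replicate 3. With smooth trends over GC content and transcript length removed from each library, it was -0.17 with an adjusted p of 0.0279 by edgeR. The median log2 fold change of the 40 nearest expressed genes, 20 on each side, was 0.15.

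In each library, the median gene with a long transcript deviated in the same direction as TRRAP. TRRAP has a longest annotated transcript of 12677 bases. In the 510 genes whose longest transcript was 10 kb or more, the median log2 deviation from the group mean was 0.12 in Delta-TRRAP replicate 2 and -0.10 in Delta-TRRAP replicate 3, and TRRAP deviated by 0.31 and -0.29 in the same libraries. In genes with transcripts under 1 kb the medians in these libraries had the opposite signs, -0.073 and 0.042. EP400 deviated by 0.32 and -0.33. In WT the pattern was narrower, with TRRAP at -0.088, -0.039 and 0.13 beside medians of -0.035, -0.018 and 0.060 for genes of 10 kb or more. The part of this length trend in the TRRAP values was not tested beyond the fit with the trend removed.

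**Figure D2:**
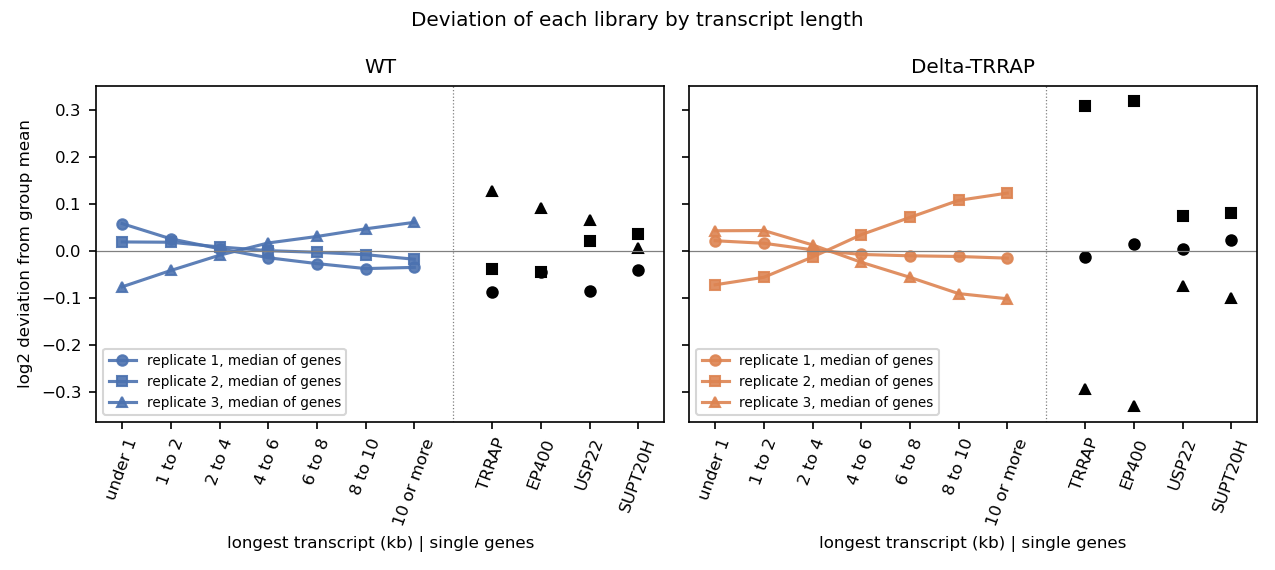
Median log2 deviation of each library from the mean of its group, over genes binned by longest transcript in kb (lines), beside the deviations of TRRAP, EP400, USP22 and SUPT20H (black markers, same shapes for replicates). In Delta-TRRAP the lines fan out with length, to 0.12 for replicate 2 and -0.10 for replicate 3 in the 10 kb bin, and TRRAP and EP400 lie on the same sides.

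Genes were ranked by the Pearson correlation of their log2 normalized count with that of TRRAP over the 6 libraries, among 11458 genes with a mean of at least 100. Among the 5 closest were NF1 (r = 0.997), which restrains RAS, DYNC1H1 (0.996), the heavy chain of cytoplasmic dynein, VPS13D (0.995), a lipid transfer protein, and SRRM2 (0.993), a scaffold of nuclear speckles. Their longest transcripts measured 12484, 20066, 16357 and 9045 bases. These are correlations over 6 points from 2 clones, in which the libraries share the length trend described above. EP400 ranked 61 with r = 0.965. Among the other members USP22 ranked 282 (r = 0.861) and SUPT20H 554 (r = 0.740), and the 7 members that passed the test had r between -0.21 and 0.39. USP22 and SUPT20H are the members that, like TRRAP, did not pass the test. The correlation was taken over both groups together, and TRRAP differed little between them. A gene with a clear group difference was therefore bound to have a lower r, so this split of the members is not separate from the test.

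In the acetyltransferase module the catalytic paralogs moved apart. KAT2A (ENSG00000108773.11, GRCh38 chromosome 17, 42113111 to 42121367, minus strand), the GCN5 acetyltransferase, had normalized counts of 1752, 1570.3 and 1646 in WT and 1109, 1163 and 1264 in Delta-TRRAP. Each Delta-TRRAP library was below each WT library, and the edgeR log2 fold change came to -0.49 ± 0.06 (SE, n = 3 per group), adjusted p = 4.27e-06. KAT2B (ENSG00000114166.8, GRCh38 chromosome 3, 20040446 to 20154404, plus strand), the PCAF acetyltransferase, had normalized counts of 1922, 1977 and 1960 in WT and 3673, 4012 and 3650.4 in Delta-TRRAP. Each Delta-TRRAP library was far above the WT libraries, and the edgeR log2 fold change came to 0.95 ± 0.05 (SE), adjusted p = 4.34e-10. KAT2B was the only member near the fold change of 2. It passed that level in 3 alternatives. Its log2 fold change was 1.09 with scaling by library size alone, 1.05 with upper quartile scaling and 1.02 among genes with a mean of at least 50. Of the merged exon length of KAT2A, 10.7% (405 bases) is also annotated to another protein-coding gene on the same strand, where reads can be left uncounted.

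The summed normalized counts of KAT2A and KAT2B were 3609 ± 63.4 in WT against 4957 ± 200 in Delta-TRRAP (SD, n = 3 each), a ratio of 1.37. KAT2A made up 47.7%, 44.3% and 45.7% of the counts of the pair in the WT libraries and 23.2%, 22.5% and 25.7% in the Delta-TRRAP libraries. The groups did not overlap, and the difference of -22.1 percentage points exceeded the widest exact 95% binomial margin of any library, 1.65 points, which covers counting error only. With 3 libraries per group the exact two-sided permutation test can give no p below 0.1, and it gave 0.1 for the sum and for the share (0.133 after Benjamini-Hochberg adjustment over 4 such comparisons). Counted per kilobase of exon, KAT2A was 53.9% ± 1.72 of the pair in WT against 30.1% ± 1.97 in Delta-TRRAP (SD, n = 3 each). KAT2A was thus the more abundant paralog per length in WT and the less abundant in Delta-TRRAP.

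**Figure D3:**
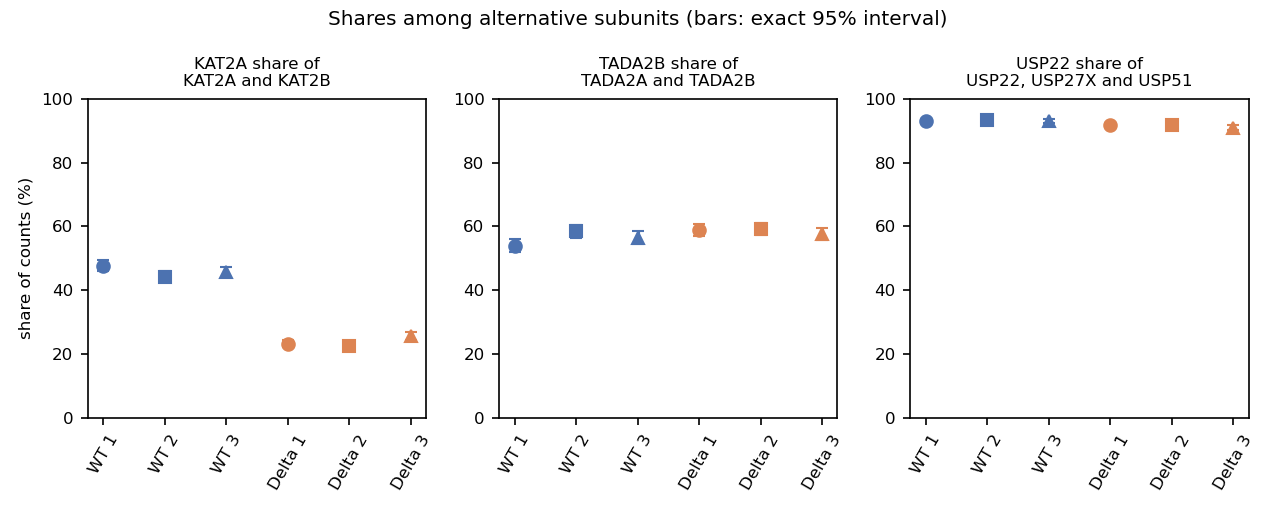
Share of counts, in percent, that a member takes among genes for alternative subunits, in each of the 6 libraries, with exact 95% binomial intervals as bars. KAT2A falls from 44.3% to 47.7% of the KAT2A and KAT2B counts in WT to 22.5% to 25.7% in Delta-TRRAP, whereas the shares of TADA2B and USP22 differ by 2.32 and -1.65 percentage points.

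The adaptors that bind the acetyltransferase also went opposite ways. TADA3 (ENSG00000171148.13, GRCh38 chromosome 3, 9779967 to 9793011, minus strand), an adaptor that SAGA shares with the ATAC complex, had normalized counts of 5245, 5248 and 5186 in WT and 4024, 3859 and 4006 in Delta-TRRAP. Its replicates were the tightest of the members in WT, with a coefficient of variation of 0.669%, and the edgeR log2 fold change came to -0.40 ± 0.05 (SE, n = 3 per group), adjusted p = 2.35e-06. TADA2B (ENSG00000173011.12, GRCh38 chromosome 4, 7041899 to 7057952, plus strand), the adaptor that places the acetyltransferase in SAGA and not in ATAC, had normalized counts of 1250.4, 1393 and 1318 in WT and 1534, 1589 and 1451 in Delta-TRRAP. The groups did not overlap, but the lowest Delta-TRRAP library was close to the highest WT library. The edgeR log2 fold change came to 0.21 ± 0.06 (SE), adjusted p = 0.00505, the weakest of the 7 that passed. It no longer passed without WT replicate 1, WT replicate 3, Delta-TRRAP replicate 1 or Delta-TRRAP replicate 2 (adjusted p of 0.0361, 0.0192, 0.021 and 0.0118 by edgeR), and also missed the threshold with the GC and length trends removed (0.0569) and with DESeq2 (0.0218).

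TADA2A, the counterpart of TADA2B in ATAC, had a log2 fold change of 0.07 with an adjusted p of 0.261 by edgeR. TADA2B took 56.3% ± 2.24 of the counts of the pair in WT against 58.6% ± 0.844 in Delta-TRRAP (SD, n = 3 each), with overlapping libraries. The exact permutation p was 0.2, also 0.2 after adjustment. The groups were thus not separated in this share.

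In the core module, which holds the rest of SAGA together, TADA1 and SUPT3H fell and SUPT7L rose. TADA1 (ENSG00000152382.6, GRCh38 chromosome 1, 166856510 to 166876264, minus strand), a histone-fold adaptor of the core, had normalized counts of 2232, 2169 and 2207 in WT and 1295, 1215 and 1279 in Delta-TRRAP. Every Delta-TRRAP library lay well below every WT library, and the log2 fold change of -0.80 ± 0.05 (SE, n = 3 per group) had an edgeR adjusted p of 1.87e-09. The 40 nearest expressed genes of TADA1 had a median log2 fold change of -0.32. SUPT3H (ENSG00000196284.16, GRCh38 chromosome 6, 44809317 to 45377953, minus strand), whose product folds like a pair of TFIID subunits and contacts TBP, was the least abundant member. Its normalized counts were 499.5, 527 and 526 in WT and 343, 310.0 and 332 in Delta-TRRAP, again without overlap, with a log2 fold change of -0.66 ± 0.07 (SE) and an adjusted p of 9.71e-07 by edgeR. The neighbours of SUPT3H had a median of -0.06.

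SUPT7L (ENSG00000119760.16, GRCh38 chromosome 2, 27650809 to 27663840, minus strand), a core subunit with a histone fold, had normalized counts of 2666, 2715 and 2749 in WT and 3669, 3659.6 and 3775 in Delta-TRRAP. All 3 Delta-TRRAP libraries were higher than all WT libraries, and the edgeR log2 fold change came to 0.45 ± 0.05 (SE, n = 3 per group), adjusted p = 6.26e-07. SUPT20H (ENSG00000102710.20, GRCh38 chromosome 13, 37009312 to 37059713, minus strand), the SAGA subunit on which TRRAP sits, had normalized counts of 2109, 2225 and 2177 in WT and 2111, 2197 and 1939 in Delta-TRRAP. The groups overlapped, and the edgeR log2 fold change came to -0.06 ± 0.06 (SE), adjusted p = 0.362. The genes around SUPT20H had a median of -0.31, so SUPT20H lay above its surroundings on chromosome 13. For the other 7 members the median of the neighbours was between -0.09 and 0.15.

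In the deubiquitinase module USP22 (ENSG00000124422.12, GRCh38 chromosome 17, 20999596 to 21043760, minus strand), the enzyme that takes ubiquitin from histone H2B, had normalized counts of 6359, 6841 and 7063 in WT and 6748, 7084 and 6389 in Delta-TRRAP. The groups overlapped over nearly their whole range. The edgeR log2 fold change came to -0.003 ± 0.06 (SE, n = 3 per group), adjusted p = 0.967, and its sign changed with the scaling. USP27X and USP51 code for deubiquitinases that can also bind the ATXN7L3 and ENY2 adaptors. USP27X rose, with a log2 fold change of 0.76 and an adjusted p of 2.88e-07, and USP51 fell, with -0.34 and 0.00845, by the same edgeR test. USP22 took 93.2% ± 0.155 of the counts of the 3 genes in WT against 91.6% ± 0.526 in Delta-TRRAP (SD, n = 3 each). These shares did not overlap, with an exact permutation p of 0.1 (0.133 adjusted), the smallest the design allows. Per kilobase of exon the share was 88.2% ± 0.204 and 84.6% ± 0.797 (SD, n = 3 each).

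**Figure D4:**
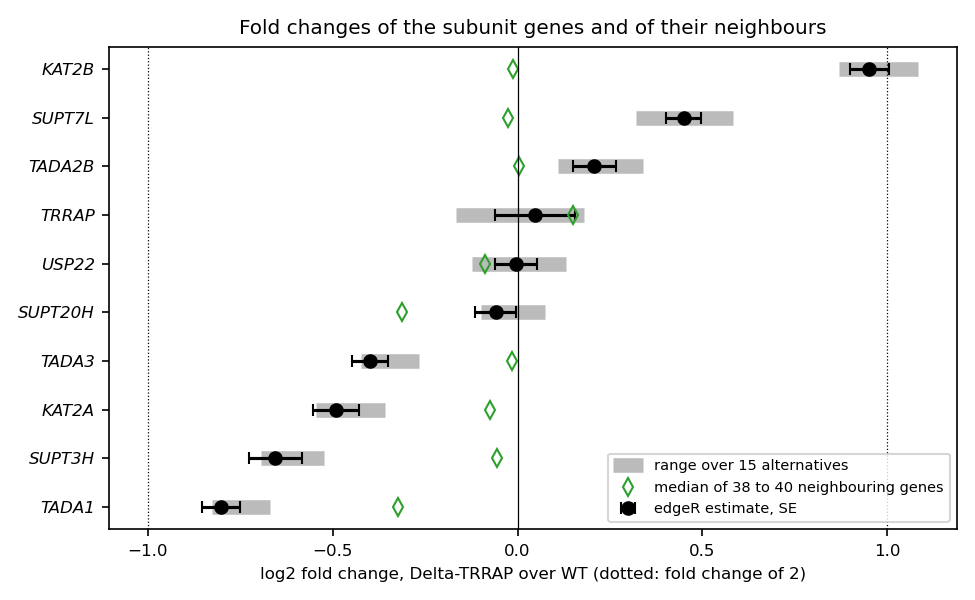
Log2 fold changes (Delta-TRRAP over WT) of the 10 members with their standard errors (black), the range over 15 alternative analyses (grey bars) and the median of the neighbouring genes (green diamonds), with dotted lines at a fold change of 2. The bars of KAT2B, SUPT7L and TADA2B stay above 0, those of TADA3, KAT2A, SUPT3H and TADA1 stay below 0, and those of TRRAP, USP22 and SUPT20H cross it.

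Levels of different genes were compared only as normalized counts per kilobase of merged exon. In WT, TADA3 (1266 ± 8.47, SD, n = 3) and USP22 (997 ± 53.1) led, followed by TADA1 (759.5), SUPT7L (510.1), KAT2A (439), KAT2B (375), TRRAP (349), TADA2B (228), SUPT20H (199.7) and SUPT3H (98.5). Only KAT2B and TRRAP were neighbours in this order whose WT libraries overlapped. In Delta-TRRAP the order began with USP22 (995) and TADA3 (960.3), which overlapped, and KAT2B (725) and SUPT7L (697), which also overlapped. TADA1 (435.5) came next, then TRRAP (360.0 ± 75.1, SD, n = 3), whose wide range overlapped those of TADA1 and of KAT2A (312) below it. TADA2B (263), SUPT20H (191.6) and SUPT3H (62.5) kept the last places. KAT2B thus moved from the sixth place to the third, and TADA1 from the third place to the fifth. The order depended on the length used. With the longest transcript in place of all exons, 5 of 10 places were kept in WT and 1 of 10 in Delta-TRRAP. KAT2B then moved from the eighth place to the fourth, TADA1 from the third place to the seventh, and SUPT20H was the fifth in WT and the sixth in Delta-TRRAP.

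Among the other SAGA subunits, 7 of 13 genes tested passed the adjusted p by edgeR, 2 higher and 5 lower, with a median log2 fold change of -0.14. TAF12, a histone-fold subunit shared with TFIID, rose (0.35 ± 0.06, SE, n = 3 per group, adjusted p of 4.80e-05 by edgeR), and ENY2, an adaptor of the deubiquitinase module that also serves mRNA export, fell (-0.80 ± 0.07, adjusted p of 4.75e-08). TAF9, a further subunit on the list, had at most 1 count per library and was not tested. Of its merged exon length, 6.71% (508 bases) is also annotated to AK6 on the same strand, where reads can be left uncounted. The part of this overlap in the low count was not tested. With the members included, 14 of 23 SAGA genes (60.9%) passed, 5 higher and 9 lower. This was near the 58.3% of all genes tested (30.7% higher and 27.6% lower) and the 68.0% of genes with a mean of at least 300 (25.0% higher and 43.0% lower). By module, 4 of 5 acetyltransferase genes passed (2 higher), 6 of 9 core genes (3 higher), 2 of 6 deubiquitinase genes (both lower) and 2 of 2 splicing-factor genes (both lower). These module counts are small, and differences between modules were not tested. None of the 23 reached the fold change of 2, beside 22.6% of all genes tested, a share that includes genes of low count.

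Genes of ATAC, which shares KAT2A or KAT2B and TADA3 with SAGA and lacks TRRAP, were compared as the other user of the acetyltransferase. Of 8 genes tested, 6 passed by edgeR, 1 higher and 5 lower, with a median log2 fold change of -0.38. Among all genes with a mean of at least 300, 25.0% passed higher and 43.0% lower, and the median was -0.11. POLE4, a histone-fold protein, fell most (-0.71 ± 0.08, SE, n = 3 per group, adjusted p of 6.36e-07 by edgeR). KAT14, the acetyltransferase particular to ATAC, rose (0.33 ± 0.07, adjusted p of 0.00069), but missed the threshold with the GC and length trends removed (0.18, adjusted p of 0.0226), and 18.0% of its exon length is shared with PET117. ZZZ3 was not analysed here.

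TRRAP depends, like the kinases of its family, on the TTT and R2TP cochaperones for its maturation. Of 12 genes of the PIKK family, TTT and R2TP, 9 passed by edgeR, 1 higher and 8 lower, with a median log2 fold change of -0.41. All 4 R2TP genes fell, with RUVBL2, an AAA+ ATPase that is also a subunit of TIP60, at -0.93 ± 0.05 (SE, n = 3 per group, adjusted p of 4.44e-10 by edgeR). All 3 TTT genes passed, with TTI2 higher (0.61 ± 0.06, adjusted p of 4.43e-07) and TELO2 and TTI1 lower. Of the 5 PIKK kinases, ATM and ATR fell and PRKDC, MTOR and SMG1 did not pass. The surroundings of the 8 genes that fell varied: the median log2 fold change of neighbouring genes was 0.00085 for RUVBL1, -0.23 for ATM, -0.30 for ATR, -0.32 for TELO2, -0.37 for PIH1D1, -0.47 for RUVBL2, -0.65 for TTI1 and -0.71 for RPAP3. The part of these surroundings in the falls was not tested. The 3 lists (other SAGA subunits, ATAC, and these 12 genes) passed at 53.8%, 75% and 75%. For all genes tested the share was 58.3% (30.7% higher and 27.6% lower), with a median log2 fold change of 0.03. For those with a mean of at least 300 it was 68.0% (25.0% higher and 43.0% lower), with a median of -0.11. The other SAGA subunits included ATXN7 (means of 29.7 in WT and 16.9 in Delta-TRRAP) and TAF10 (211 and 233). Both lay below that level and did not pass.

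**Figure D5:**
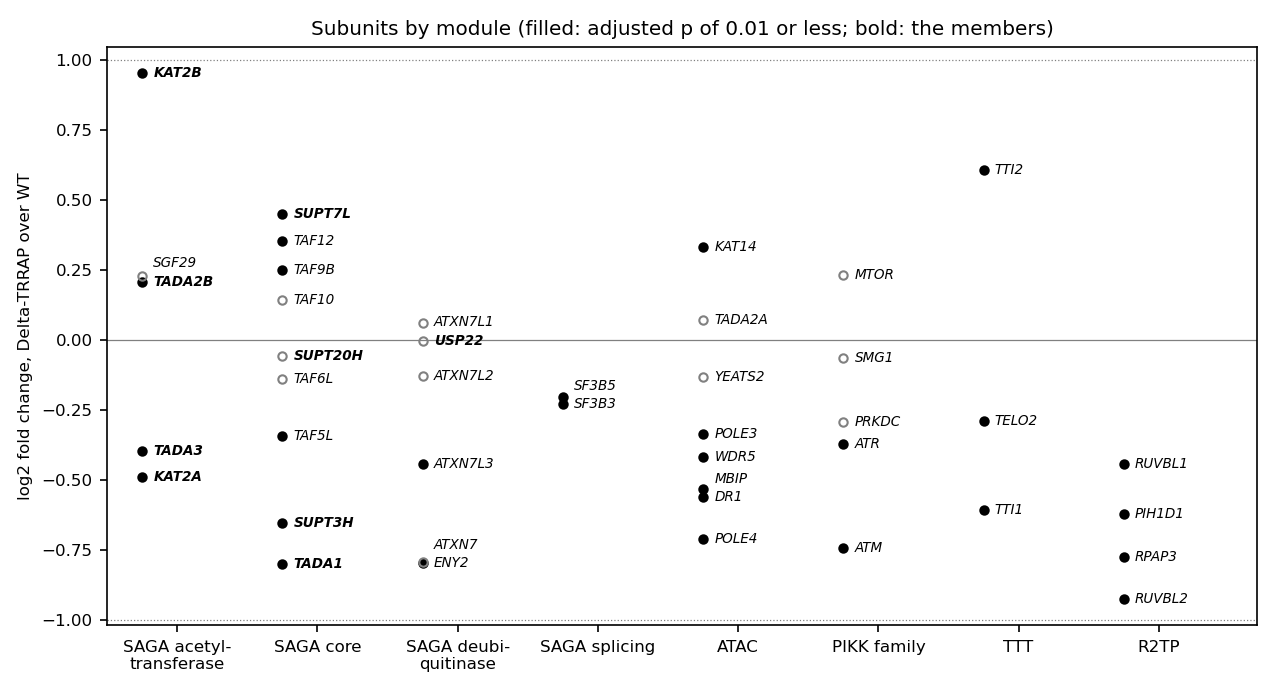
Log2 fold changes (Delta-TRRAP over WT) of the tested genes of SAGA by module, of ATAC, and of the PIKK family, TTT and R2TP, with filled points for an adjusted p of 0.01 or less by edgeR and the members in bold. Rises and falls are mixed in the SAGA acetyltransferase and core modules, all 4 R2TP genes lie below 0, and every point lies within the dotted lines at a fold change of 2.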

How the data were processed

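The authors aligned reads to hg38 with STAR, kept uniquely mapping reads and counted them per GENCODE v32 gene with HTSeq 2.0.2 in reverse-stranded union mode. The deposited counts of 6 libraries were used without prior normalization. A deposited table of normalized signal, which held 3 further sample columns, and a table of the authors' own fold changes and p-values were not used. The 2 groups of 3 libraries came from the sample titles.

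Counts were tested with edgeR 4.0.16 (R 4.3.3; TMM scaling, quasi-likelihood test of group alone, Benjamini-Hochberg adjustment) over 19114 of 34998 genes with a count, those whose normalized counts averaged 5 or more. The thresholds (fold change 2, adjusted p 0.01) were those of the study, which used DESeq2. Shares were compared by exact two-sided permutation tests over libraries (SciPy 1.17.1). Gene positions and lengths were taken from GENCODE v44 on GRCh38 and promoter sequences from RefSeq on GRCh38.p14. Correlations with TRRAP used log2 of the normalized count plus 0.5. The members, the lists of other subunits and the markers were chosen with earlier results of these data known. All members were named, with the largest rise and the largest fall past the adjusted p of each other list, the 5 genes most like TRRAP, of which 1 is not reported here, and EP400. A few further genes, named to spell out a small count, were chosen after their values were seen. The depth of 35076835 to 42616061 counts per library gave every member at least 314 counts in every library. The scripts were tested on simulated data. Alternatives were RLE, library size and upper quartile scaling, other filters, DESeq2 1.42.0, limma-voom (limma 3.58.1), a replicate block, a GC and length correction, a fold change of 1.5, and leaving out each library.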

Additional observations from a re-analysis of the deposited data

How the results depend on the processing

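Over 15 alternative analyses, KAT2A, TADA3, KAT2B, SUPT3H, SUPT7L and TADA1 kept their direction and their side of the adjusted p of 0.01 in all 15, and TADA2B in 9. The number of members past the adjusted p was 6 with DESeq2 and with the GC and length trends removed, 6 to 7 with 1 library left out, and 7 otherwise. Members called at a fold change of 2, 0 in the analysis reported, numbered 1 (KAT2B) with library size alone, upper quartile scaling or a minimum mean of 50, and 3 at a fold change of 1.5. Library size alone and upper quartile scaling shifted all genes, whose median log2 fold change went from 0.03 to 0.17 and 0.13. Genes called over the whole table numbered 4322, 1964 with a minimum mean of 50, which tested fewer genes, 6750 at a fold change of 1.5, and 4016 to 4263 with 1 library left out.

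The sign of members that did not pass turned, and the cause was not tested. TRRAP was at -0.17 with the GC and length trends removed and at -0.12 to 0.18 with 1 library left out. SUPT20H was at 0.074 with library size alone, 0.041 with upper quartile scaling and 0.013 with a minimum mean of 50. USP22 was at 0.13, 0.098 and 0.069 under the same alternatives and at -0.052 to 0.032 with 1 library left out. EP400 was at -0.015 with the trends removed and at -0.026 to 0.29 with 1 library left out. Of the 20 places in the orders of levels per kilobase, 10 per group, 6 were kept with the longest transcript as length (5 in WT and 1 in Delta-TRRAP), and 18 to 20 with 1 library left out.

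Same-numbered replicates did not deviate together (correlations of -0.0075, -0.024 and -0.016), so the numbers were not taken as pairs. With the replicate number as a block 4184 genes were called and 7 members passed, and TRRAP was at 0.03. Groups of 3 limit the exact tests of shares to a p of 0.1.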
